A study of Homo sapiens with 10 samples.

Results

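Chromosome 19 was examined across 6 lists of regions of CUT&RUN enrichment. All come from RPMI-8402, a long-established line of human T-ALL (T-cell acute lymphoblastic leukaemia), in culture and with no treatment given in the labels. The chromosome held 5341 of the 121294 regions that the lists place on chromosomes 1 to 22 and X, with coordinates on hg19. The members were chosen by position, as every listed region on this chromosome, and 501 of them had their centre in 3 windows named for clusters of zinc finger genes. Window 1 ran from 19.8 to 24.2 Mb, window 2 from 52.3 to 54.0 Mb and window 3 from 56.2 to 59.0 Mb. The chromosome was put forward with the densities of these same lists known, so its counts and densities are given as a description and are not tested.

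In CUT&RUN an antibody held on chromatin in permeabilised cells draws in a protein A/G-nuclease fusion, which cuts out the DNA beside the target. The series held 10 libraries in 4 sets, 4 of them control IgG. The 6 lists used here were MYCN of set A, H3K4me3 of set B, MYC, H3K27ac and H3K4me1 of set C, and MYC of set D. Every list is filed under 1 library, and MYC is the only target that the labels give 2 libraries. The 2 MYC lists came from different peak callers, SEACR in set C and MACS2 in set D, so caller and set cannot be told apart. Their headers point to 1 signal track, so both lists may come from the same data, and whether they are independent was not settled. As its control, the set D MYC library is labelled with its own name. The lists give positions only, which leaves sequencing depth unknown, and regions of 1 list are not replicates of a condition. Intervals are exact 95% intervals (Clopper-Pearson) and cover counting error over listed regions only.

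Human chromosome 19 carries tandem clusters of C2H2 zinc finger genes, many of them with a KRAB domain. Their proteins bind DNA through arrays of zinc fingers, and KRAB members recruit the corepressor TRIM28 to silence transposable elements. By symbol, 260 of 552 protein-coding genes named ZNF, ZSCAN, ZIM or ZFP were on chromosome 19 in RefSeq (GRCh38.p14), which is 47.1%, compared with 7.23% of all protein-coding genes. H3K4me3 marks promoters in use or poised for use, H3K27ac marks active promoters and enhancers, and H3K4me1 marks enhancers and the flanks of promoters. MYC and MYCN bind DNA with their partner MAX, with the E-box CACGTG as their best-known site.

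Promoters of zinc finger genes of chromosome 19 are shown first, as examples of promoters with the E-box in this gene family, wherever on the chromosome the gene lies. RefSeq lists them on GRCh38.p14 and not on hg19, so they are matched here by gene name and chromosome, and no listed region is placed on any of them. A promoter of 300 bases was at hand for 225 of the 260 zinc finger genes of chromosome 19. CACGTG, which reads the same on both strands, was found in 10 of these (4.44%), in 84 of 960 promoters of other protein-coding genes of the chromosome (8.75%) and in 1407 of 15842 promoters of all protein-coding genes (8.88%). The related CACGCG, searched on both strands, was found in 16%, 15.5% and 14.8%, and a promoter with both motifs counts under each. Zinc finger promoters of chromosome 19 had a median GC content of 60% (quartiles 56.0 and 64.7) and a median of 20 CpG dinucleotides (14 and 26). Promoters of the other genes of the chromosome had medians of 64% and 21. The letters are a description of these windows of sequence and say nothing of binding.

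Of the 9 zinc finger promoters of the chromosome with CACGTG in the 250 bases before the start, the 3 with the most CpG dinucleotides are printed 5′ to 3′ on the strand of the gene, with the match in capitals.
ZNF324: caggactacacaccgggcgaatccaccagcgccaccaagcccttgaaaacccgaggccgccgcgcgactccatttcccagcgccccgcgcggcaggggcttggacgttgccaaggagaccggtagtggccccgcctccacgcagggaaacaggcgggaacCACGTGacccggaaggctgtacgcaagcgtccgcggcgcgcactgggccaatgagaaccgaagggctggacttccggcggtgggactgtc
ZSCAN18: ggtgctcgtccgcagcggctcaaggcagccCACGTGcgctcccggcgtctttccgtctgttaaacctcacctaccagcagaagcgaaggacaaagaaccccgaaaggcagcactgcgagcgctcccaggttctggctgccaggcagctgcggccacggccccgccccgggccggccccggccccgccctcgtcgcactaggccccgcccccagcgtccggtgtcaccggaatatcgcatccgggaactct
ZNF565: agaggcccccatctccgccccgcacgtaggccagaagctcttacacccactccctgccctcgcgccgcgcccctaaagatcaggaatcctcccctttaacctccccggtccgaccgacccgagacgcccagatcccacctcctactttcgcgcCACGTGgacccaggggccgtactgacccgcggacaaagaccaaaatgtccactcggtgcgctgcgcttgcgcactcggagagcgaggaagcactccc
The match begins 90 bases before the start in ZNF324, 220 bases before it in ZSCAN18 and 97 bases before it in ZNF565. The 250 bases held 28, 27 and 24 CpG dinucleotides, with a GC content of 68.4%, 69.6% and 65.6%.

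As a whole, chromosome 19 carried H3K4me3, MYC and MYCN at the highest density of all 23 chromosomes. H3K4me3 had 1033 regions there, or 18.5 per Mb, against 4.62 per Mb on the other chromosomes, a ratio of 4.00. MYC had 694 regions in set C (12.4 per Mb, against 3.17) and 1026 peaks in set D (18.3 per Mb, against 6.12), and MYCN had 42 peaks (0.751 per Mb, against 0.307). The lead for MYCN was narrow and rests on few peaks. Chromosomes 20, 17 and 22 had 0.655, 0.640 and 0.612 MYCN peaks per Mb. H3K27ac and H3K4me1 were less concentrated. Their 1226 and 1320 regions gave 21.9 and 23.6 per Mb, ratios of 1.59 and 1.72 to the other chromosomes. For both marks chromosome 19 ranked 4 of 23. Chromosome 17, another gene-dense chromosome, led for these 2 marks with 30.1 and 35.7 per Mb and had 11.3 H3K4me3 regions per Mb. Chromosome 22 was second for H3K27ac with 27.4 per Mb. Densities refer to the length from the first to the last region of any list, less the longest stretch without a region, which left 55.9 Mb here.

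Its regions were shared between lists in other proportions than elsewhere, which can follow from the densities above. H3K4me3 was 4.00 times as dense here as on the other chromosomes, against 1.59 for H3K27ac and 1.72 for H3K4me1. H3K4me3 overlapped 52.2% of the H3K27ac regions of chromosome 19 (49.4 to 55.0%), against 22.2% on the other chromosomes (21.8 to 22.7%) and 25.2%, 24.5% and 20.9% on chromosomes 16, 17 and 22. Of the H3K4me1 regions, 18.9% (16.9 to 21.2%) overlapped H3K4me3, against 4.71% elsewhere (4.50 to 4.92%). In the other direction 23.8% of the H3K4me3 regions (21.2 to 26.5%) overlapped H3K4me1, against 13.7% elsewhere (13.1 to 14.3%). Chromosome 17 was close to it with 21.6%, and chromosomes 16 and 22 had 14.5% and 15.3%. The H3K4me3 regions were narrower than elsewhere, with a median of 1185 bp against 1361 bp. Regions at or above the median width of the list made up 41.0% of them, against 40.5% on chromosome 22, 45.8% on chromosome 17 and 46.8% on chromosome 16, so this was shared with other gene-dense chromosomes. No test was made of these shares.

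Inside the zinc finger windows H3K4me3 was about as dense as on the rest of the chromosome, and H3K4me1 was sparse. The windows take up 8.90 Mb, or 15.9% of the length used. They held 145 of the 1033 H3K4me3 regions (14.04%, 11.97 to 16.3%) but only 27 of the 1320 H3K4me1 regions (2.05%, 1.35 to 2.96%). For H3K4me1 this gave 3.03 regions per Mb in the windows and 27.5 per Mb on the rest, 9.06 times as many. For H3K4me3 the densities were 16.3 and 18.9 per Mb. H3K27ac lay between them, with 144 of 1226 regions in the windows (11.7%, 9.996 to 13.7%) at 16.2 per Mb, against 23.01 per Mb on the rest. MYC of set D had 124 of its 1026 peaks there (12.1%, 10.2 to 14.2%) at 13.9 against 19.2 per Mb, and MYC of set C 56 of 694 (8.07%, 6.15 to 10.4%) at 6.29 against 13.6 per Mb. MYCN had 5 of 42.

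**Figure D1:**
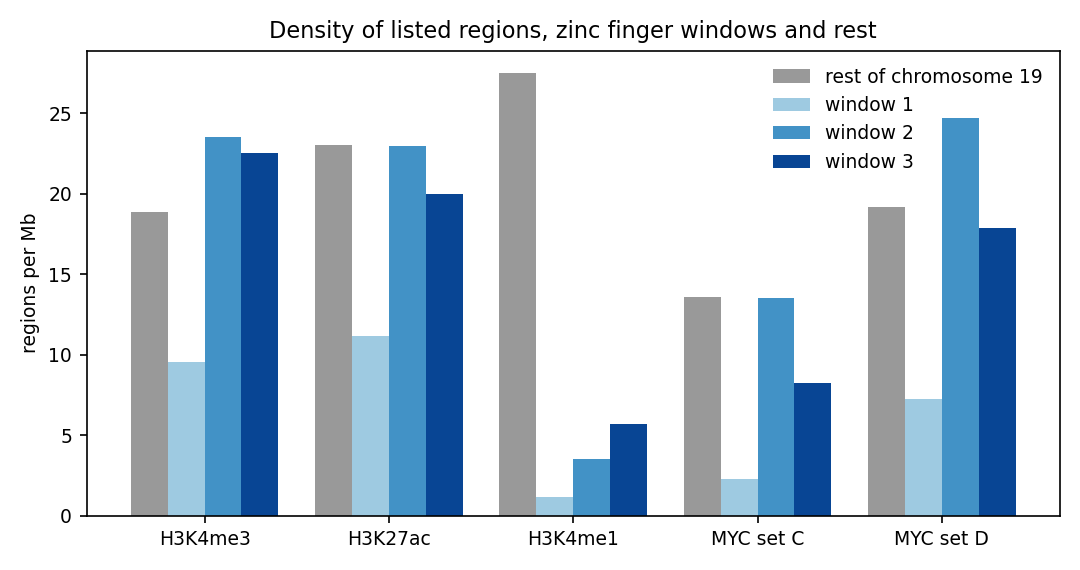
Regions per Mb of chromosome 19 (y axis) for 5 lists, on the rest of the chromosome and in each of the 3 zinc finger windows; each bar is 1 count from 1 library over its length. H3K4me1 is at 1.14, 3.53 and 5.71 per Mb in the windows against 27.5 on the rest, while H3K4me3 is at 9.55, 23.5 and 22.5 per Mb against 18.9.

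All 3 windows were low in H3K4me1, and they differed in the other marks. Window 1, the longest, had the lowest density of the 3 for the histone marks and MYC, with 42 H3K4me3, 49 H3K27ac, 5 H3K4me1, 10 MYC set C and 32 MYC set D regions. Its H3K4me3 density was 9.55 per Mb, while windows 2 and 3 had 23.5 and 22.5 per Mb, above the rest of the chromosome. Without window 1 the ratio of H3K4me3 density in the windows to that on the rest turned from 0.863 to 1.21, and that of MYC set D from 0.726 to 1.07. Window 2 held 40 H3K4me3 regions, 39 H3K27ac regions and 42 MYC set D peaks in 1.70 Mb, and 6 H3K4me1 regions. Window 3 held 63, 56 and 50 of these and 16 H3K4me1 regions. H3K4me1 density was lower than on the rest in each window alone, between 1.14 and 5.71 per Mb.

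Around the window edges H3K4me1 was lower inside in the sum, while single edges differed. Within 0.5 Mb of the 6 edges there were 58 H3K4me3 regions on the inner side and 60 on the outer side, and 57 and 60 H3K27ac regions. These even sums join edges that ran opposite ways. They also join unequal lengths. Beyond the end of window 3, at 59.0 Mb, the last region of any list ended at 59100556. Beyond the end of window 1, at 24.2 Mb, the longest stretch without a region began at 24623686. At the start of window 3 there were 4 H3K4me3 regions inside and 27 outside, with 5 and 23 H3K27ac regions and 3 and 18 H3K4me1 regions, so all 3 marks were lower inside. Window 2 had more H3K4me3 inside, with 12 against 5 at its start and 10 against 3 at its end. H3K4me1 had 11 regions on the inner side and 55 on the outer side. At the start of window 1 there was 1 H3K4me1 region inside against 27 outside, with 9 and 12 H3K4me3 regions. The end of window 1 had none on either side, and the end of window 2 had 2 inside and none outside, so the contrast was not present at every edge.

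In bins of 1 Mb the pattern could be followed along the chromosome. The bin from 58 to 59 Mb had 40 H3K4me3 regions, the most of any bin in the windows, with 35 H3K27ac regions, 32 MYC set D peaks and 11 H3K4me1 regions. The bin from 1 to 2 Mb, outside the windows, had 41 H3K4me3 regions and 75 H3K4me1 regions, the most of either mark on the rest. Among bins with at least 10 H3K4me3 regions, the 6 in the windows had a median of 5 H3K4me1 regions (0 to 12) and the 38 others a median of 31.5 (0 to 75). The 2 ranges overlapped at their lower end. The bin from 22 to 23 Mb was the emptiest of the windows, with 4 H3K4me3 regions, 3 H3K27ac regions, 3 MYC set D peaks and no region of H3K4me1 or MYC set C.

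**Figure D2:**
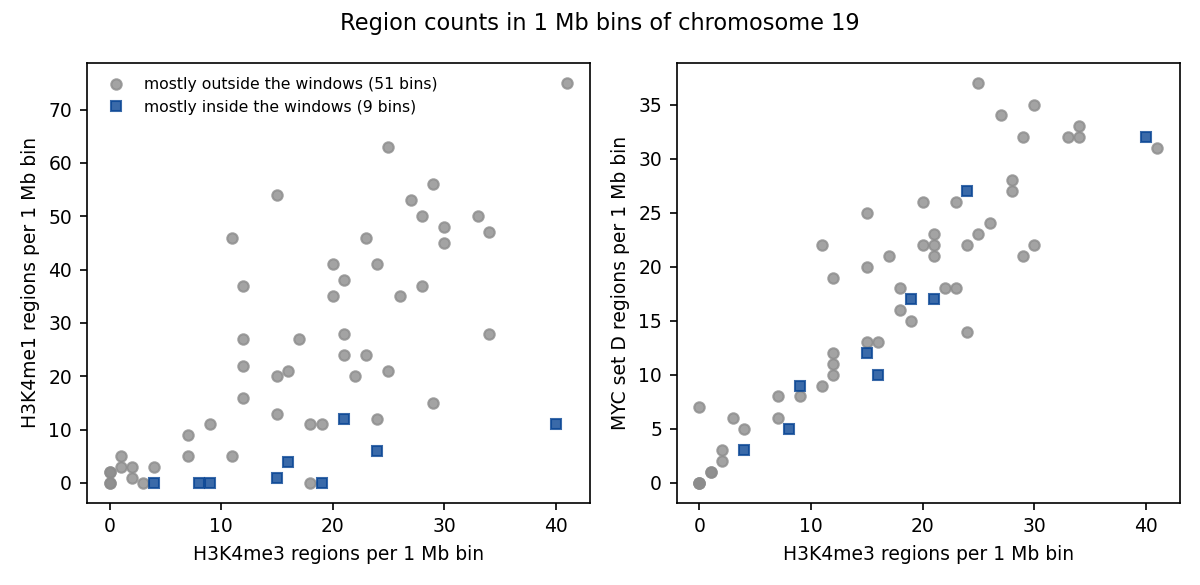
Each point is a 1 Mb bin of chromosome 19, placed by its number of H3K4me3 regions (x axis) and of H3K4me1 regions (left) or MYC set D peaks (right); squares are the 9 bins mostly inside the windows, circles the others. The squares reach at most 12 H3K4me1 regions and lie along the lower edge on the left, while on the right they lie among the circles.

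The make-up of single regions was then compared. The rule that names the windows uses positions and densities and not co-occurrence, but the tests were chosen with earlier results of these lists known. Each share in the windows was set against that on the rest by a two-sided Fisher's exact test. With Benjamini-Hochberg adjustment over the family of 28 shares, 16 passed at 0.05. Of these, 10 were higher in the windows and 6 lower. All 6 lower ones are shares that overlap H3K4me1 or MYC set C. These lists had the lowest ratios of density in the windows to that on the rest (0.110 and 0.464). A lower share can follow from that known density. Shares that overlap H3K4me1 or MYC set C are therefore given as a description, with no p-value. A higher share can likewise follow where the regions counted are themselves sparser in the windows than the list they meet. It applies to H3K4me1, MYC set C, H3K27ac and MYC set D regions that meet H3K4me3 (density ratios 0.110, 0.464, 0.703, 0.726 and 0.863). It also applies to H3K4me1 and MYC set C regions that meet MYC set D or H3K27ac. P-values for these shares cannot separate make-up from density. Neighbouring regions are not independent of each other, and 1 library stands behind each list, and p-values here refer to the lists rather than to cultures.

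H3K4me3 regions of the windows met H3K27ac more often than those on the rest of the chromosome, and their share with H3K4me1 was lower, as was the density of that list. H3K27ac overlapped 118 of 145 H3K4me3 regions in the windows (81.4%, 74.1 to 87.4%) and 539 of 888 on the rest (60.7%, 57.4 to 63.9%), with 66.2% over all chromosomes (Fisher's exact test, adjusted p = 2.68e-06). H3K4me1 overlapped 11 of 145 (7.59%, 3.85 to 13.2%) and 235 of 888 (26.5%, 23.6 to 29.5%), with 14.4% over all chromosomes. All 3 windows lay on the same side of the rest for both marks, with 85.7%, 75% and 82.5% for H3K27ac and 4.76%, 7.5% and 9.52% for H3K4me1. Among H3K4me3 regions at or above the median width of the list, the H3K27ac shares were 87.9% and 75.4% and the difference no longer passed (Fisher's exact test, adjusted p = 0.0583). Counting H3K27ac within 5 kb gave 84.1% and 80.3% (Fisher's exact test, adjusted p = 0.452).

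The gap in H3K4me1 reached beyond the H3K4me3 regions themselves. This distance was looked at after the shares were seen, and it is given without a test. H3K4me1 had 3.03 regions per Mb in the windows and 27.5 on the rest, so longer distances largely restate that density. The nearest H3K4me1 region lay at a median distance of 72289 bp from the H3K4me3 regions of the windows (quartiles 26582 and 223490 bp) and of 2230.5 bp from those on the rest (0 and 14064 bp). Within 5 kb, 13.1% of the H3K4me3 regions of the windows (8.08 to 19.7%) and 61.5% of those on the rest (58.2 to 64.7%) had an H3K4me1 region. H3K4me3 regions themselves were spaced at a median of 29.8 kb in the windows (142 gaps, quartiles 17.9 and 52.2 kb) and 21.1 kb on the rest (883 gaps, 5.35 and 53.3 kb). Short gaps were fewer in the windows, as the lower quartiles show.

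**Figure D3:**
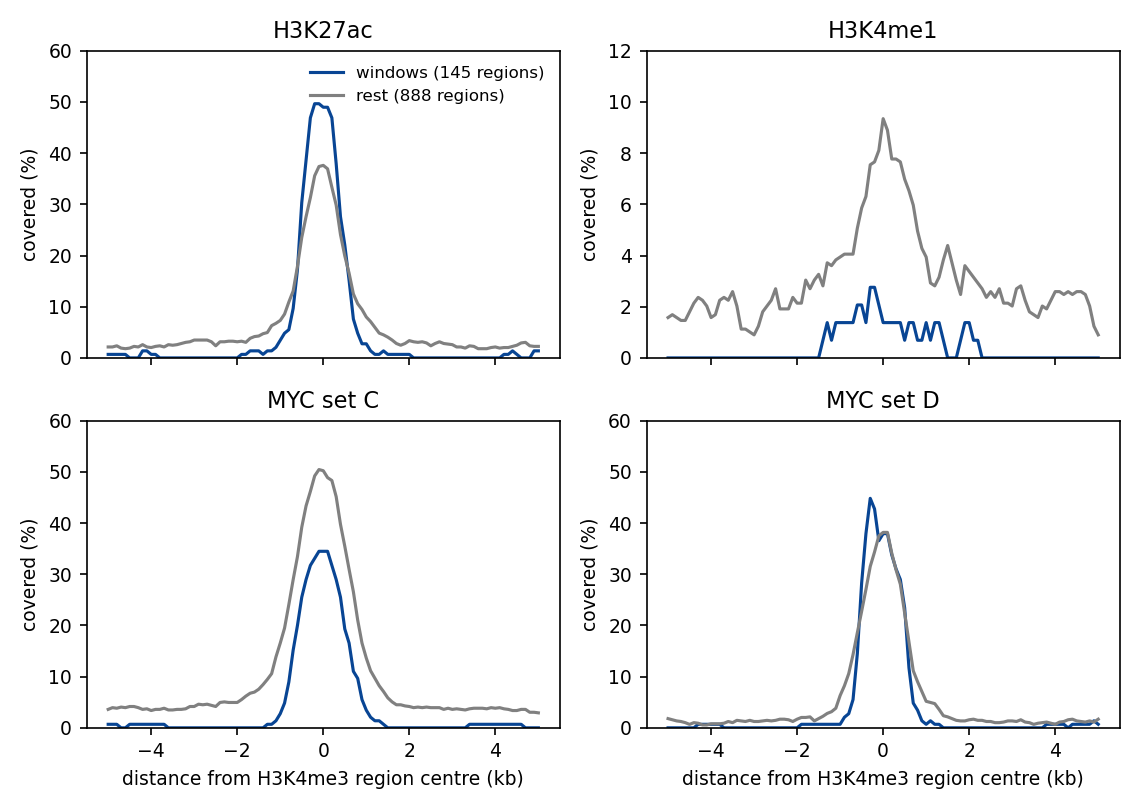
Share of H3K4me3 regions covered by H3K27ac, H3K4me1, MYC set C or MYC set D (y axis, %) at each distance from the centre of the H3K4me3 region (x axis, kb, by genome coordinate and not by strand), for 145 regions of the windows and 888 of the rest; the H3K4me1 panel has its own scale. H3K4me1 covers 1.38% of the centres in the windows and 9.35% on the rest, H3K27ac 49.0% and 37.6%, MYC set C 34.5% and 50.2% and MYC set D 37.9% and 38.2%.

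At the H3K4me3 regions of the windows MYC was less common than on the rest in the set C list, while the difference in the set D list was tested and did not pass. MYC of set D overlapped 120 of 145 (82.8%, 75.6 to 88.5%) and 671 of 888 (75.6%, 72.6 to 78.4%), with 72.3% over all chromosomes, a difference of 7.196 points that did not pass (Fisher's exact test, adjusted p = 0.0952). This difference passed when window 1 was left out (10.8 points, Fisher's exact test, adjusted p = 0.0251) or 100 bp had to be shared, and its sign turned under 3 other alternatives. MYC of set C overlapped 55 of 145 (37.9%, 30.01 to 46.4%) and 550 of 888 (61.9%, 58.7 to 65.1%), with 47.9% over all chromosomes. Window 1 had the fewest in both lists, with 73.8% for set D and 21.4% for set C, and window 2 the most, with 95% and 57.5%. Taking both lists together, 82.8% of the H3K4me3 regions of the windows and 82.3% of the others held MYC in at least 1 list. MYC of set D alone was found at 44.8% of those in the windows (36.6 to 53.3%) and 20.4% on the rest (17.8 to 23.2%), and MYC of set C alone at 0 of 145 (up to 2.51%) and 60 of 888 (6.76%). MYCN, rare everywhere, overlapped 5 of 145 (3.45%) and 29 of 888 (3.27%), with 5.1% over all chromosomes, and the difference did not pass (Fisher's exact test, adjusted p = 0.835).

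**Figure D4:**
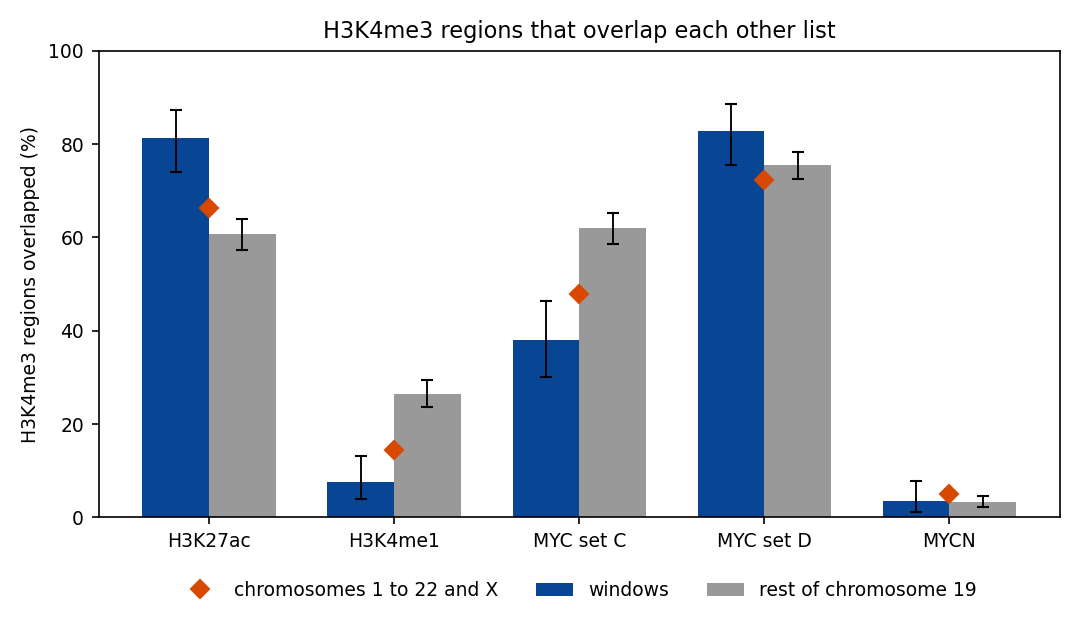
Share of H3K4me3 regions that overlap each other list (y axis, %) in the windows and on the rest of chromosome 19; error bars are exact 95% intervals, and diamonds give the share over chromosomes 1 to 22 and X. The intervals of windows and rest lie apart for H3K27ac, H3K4me1 and MYC set C and overlap for MYC set D and MYCN.

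Sorted by acetylation and MYC together, 101 of the 145 H3K4me3 regions of the windows (69.7%, 61.5 to 77.0%) had H3K27ac with MYC in at least 1 list, against 55.3% on the rest (52.0 to 58.6%). MYC without H3K27ac was found at 13.1% (8.08 to 19.7%) and 27.03% (24.1 to 30.1%). H3K27ac without MYC was found at 11.7% (6.98 to 18.1%) and 5.41% (4.01 to 7.10%), and neither at 5.52% (2.41 to 10.6%) and 12.3% (10.2 to 14.6%). The combination of H3K27ac and MYC with no H3K4me1 made up 63.4% of the H3K4me3 regions in the windows (55.1 to 71.3%), 38.3% on the rest (35.1 to 41.6%) and 48.8% over all chromosomes.

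Acetylated regions of the windows mostly overlapped H3K4me3. H3K27ac was thinned more than H3K4me3 in the windows, so the higher share can follow from density. Of 144 H3K27ac regions there, 115 overlapped H3K4me3 (79.9%, 72.4 to 86.1%), against 48.5% on the rest (45.5 to 51.5%) and 23.2% over all chromosomes (Fisher's exact test, adjusted p = 5.19e-12). H3K4me1 overlapped 16 of them (11.1%, 6.49 to 17.4%) against 48.1% (45.0 to 51.1%), with 45.3% over all chromosomes. The enhancer-like pair of H3K27ac and H3K4me1 without H3K4me3 was met by 7 of the 144 (4.86%, 1.98 to 9.76%) and by 348 of 1082 on the rest (32.2%, 29.4 to 35.0%). MYC of set D overlapped 70.1% and 50.5%, with 31.6% over all chromosomes (Fisher's exact test, adjusted p = 2.42e-05, and 0.0833 with MYC counted within 5 kb). MYC of set C overlapped 33.3% and 40.9%, with 19.1% over all chromosomes, and the sign of this difference turned without window 1 and among the wider H3K27ac regions. Joined within 10 kb, the acetylated regions formed 121 clusters in the windows with a longest of 23.7 kb, and 1 reached 20 kb. On the rest 25 of 724 clusters reached 20 kb, with a longest of 44.6 kb.

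The few H3K4me1 regions left in the windows lay more often at H3K4me3, although 27 regions allow little precision. The low density of that list in the windows can raise such shares by itself. Of these, 11 overlapped H3K4me3 (40.7%, 22.4 to 61.2%), against 18.5% on the rest (16.4 to 20.7%) and 5.18% over all chromosomes (Fisher's exact test, adjusted p = 0.0185). MYC of set D overlapped 12 of the 27 (44.4%) and 23.4%, with 13.1% over all chromosomes (Fisher's exact test, adjusted p = 0.0342). Both calls were lost without window 2 (Fisher's exact test, adjusted p = 0.0781 and 0.421), and both differences turned their sign with the 12 wider H3K4me1 regions of the windows alone. The H3K4me3 call was also lost without window 3 and with edges moved inward (Fisher's exact test, adjusted p = 0.0630 and 0.0746), and the MYC call under 6 further alternatives (Fisher's exact test, adjusted p between 0.0636 and 0.685). H3K27ac overlapped 59.3% and 45.4%, with 50.4% over all chromosomes, a difference that did not pass (Fisher's exact test, adjusted p = 0.257). MYC of set C overlapped 22.2% and 19.5%, with 7.19% over all chromosomes.

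Seen from the factor, nearly every MYC site of the windows was in H3K4me3. Both MYC lists were thinned more than H3K4me3 in the windows, so the higher shares can follow from density. In set D this held for 120 of 124 peaks (96.8%, 91.9 to 99.1%), against 72.1% on the rest (69.0 to 74.97%) and 56% over all chromosomes (Fisher's exact test, adjusted p = 1.12e-10). In set C it held for 55 of 56 regions (98.2%, 90.4 to 99.95%), against 79.8% on the rest (76.5 to 82.8%) and 65.9% over all chromosomes (Fisher's exact test, adjusted p = 0.000308, and 0.427 with the 23 wider set C regions of the windows). The enhancer-like pair of marks was met by 1 set D peak and 0 set C regions of the windows, against 84 of 902 (9.31%) and 54 of 638 (8.46%) on the rest.

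H3K27ac overlapped 82.3% of set D peaks in the windows and 62.2% on the rest, with 70.7% over all chromosomes (Fisher's exact test, adjusted p = 1.95e-05, and 0.128 with H3K27ac counted within 5 kb). For set C the shares were 85.7% and 68.5%, with 78.2% over all chromosomes (Fisher's exact test, adjusted p = 0.0121), and this call was lost without window 2, with the wider regions, and with H3K27ac counted within 2 or 5 kb (Fisher's exact test, adjusted p between 0.204 and 0.809). H3K4me1 overlapped 9.68% and 32.8% of set D peaks, with 28.2% over all chromosomes. For set C the shares were 10.7% and 37.1%, with 26.6% over all chromosomes.

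The 2 MYC lists, which may rest on the same data, overlapped unequally in the 2 directions. Set C was thinned more in the windows than set D (density ratios 0.464 and 0.726). The test of their overlap therefore cannot separate agreement of the lists from density or from the peak caller. All 56 set C regions of the windows overlapped a set D peak (100%, 93.6 to 100%), against 85.1% on the rest and 82.5% over all chromosomes (Fisher's exact test, adjusted p = 0.000800, with 0.0693 for the wider set C regions and 0.0606 for set D counted within 5 kb). Of the 124 set D peaks there, 57 overlapped set C (45.97%, 37.0 to 55.1%), against 61.9% on the rest (58.6 to 65.0%) and 45.1% over all chromosomes. The 67 set D peaks of the windows absent from set C were narrower than the 57 shared ones, with medians of 400 and 525 bp, and 64 of the 67 lay in H3K4me3 (95.5%). On the rest of the chromosome 179 of 344 such peaks did (52.0%), with a median width of 347.5 bp.

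No difference in the share of wide regions passed the test, and the widths themselves were not tested. Regions at or above the median width of their list, which are 50% of H3K4me3 and H3K27ac and 50.1% of the other 3 lists over all chromosomes, made up 45.5% of the H3K4me3 regions in the windows and 40.3% on the rest (Fisher's exact test, adjusted p = 0.304). For MYC the shares were 59.7% and 56.8% in set D and 41.1% and 46.1% in set C, for H3K27ac 46.5% and 52.1% and for H3K4me1 44.4% and 57.1% (Fisher's exact test, adjusted p between 0.301 and 0.630). The spread of H3K4me3 widths was smaller in the windows, with quartiles of 1047 and 1592 bp around a median of 1299 bp, against 600.5 and 1647 bp around 1138.5 bp. Joined within 1 kb, no H3K4me3 domain of the windows reached 4 kb (0 of 137), and 11 of 763 did on the rest (1.44%).

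In window 1 the widest H3K4me3 domain ran from 21767327 to 21770687 (3361 bp), with 2 H3K27ac regions and no MYC. In window 2 it ran from 53605166 to 53607419 (2254 bp) and in window 3 from 58918824 to 58921412 (2589 bp), each with 1 H3K27ac region and MYC in both sets, and none of the 3 met H3K4me1. The broadest of the chromosome ran from 13206348 to 13214481 (8134 bp), outside the windows, with 4 MYC set C regions and no set D peak. It was followed by 13260105 to 13266843 (6739 bp), 55764727 to 55771272 (6546 bp), 2235086 to 2240325 (5240 bp) and 10675620 to 10680527 (4908 bp), all 4 with MYC in both sets and none with MYCN. The longest H3K27ac cluster of the windows, from 21786570 to 21810314 in window 1, held 5 H3K27ac regions and no region of any other list. In window 2 the longest ran from 53030295 to 53045578, with 2 H3K4me3 regions, 2 MYC set C regions, 3 MYC set D peaks and no H3K4me1. In window 3 it ran from 58315082 to 58331470, with 3 H3K4me3 regions, 1 H3K4me1 region and 1 MYC set D peak. The 3 longest of the chromosome lay outside the windows, from 18111634 to 18156218, 5949751 to 5993477 and 49122495 to 49164620, and held 7, 8 and 3 H3K4me1 regions.

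The widest MYC set D peaks of the 3 windows ran from 20011185 to 20012045 (861 bp), 52641994 to 52643419 (1426 bp) and 56825795 to 56826845 (1051 bp), and each overlapped H3K4me3, H3K27ac and MYC of set C. None held MYCN, and H3K4me1 was met by that in window 3. The widest outside the windows, from 18699553 to 18701591 (2039 bp), carried the same marks and a MYCN peak.

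MYCN was thinly spread on the chromosome. Of its 42 peaks, 34 overlapped H3K4me3, 28 H3K27ac, 12 H3K4me1, 27 MYC of set C and 41 MYC of set D. The 5 peaks of the windows were all in window 3, from 56652286 to 56652497, 56904592 to 56904856, 57791110 to 57791689, 57946752 to 57946921 and 58873935 to 58874105. All 5 overlapped H3K4me3 and MYC of set D and none H3K4me1, while H3K27ac was met by 3 and MYC of set C by 3. The peak from 57791110 to 57791689 (580 bp) was the widest MYCN peak of the chromosome. Next in width were 5090833 to 5091340 (508 bp), which lacked H3K4me3 and had both other marks, then 59049809 to 59050286 (478 bp), 54960264 to 54960719 (456 bp) and 44123782 to 44124164 (383 bp). All 5 held MYC of both sets. The MYCN peak outside MYC, from 47287960 to 47288315, met all 3 histone marks. MYCN overlapped 5.36% of MYC set C regions in the windows and 3.76% on the rest, with 6.51% over all chromosomes, and 4.03% and 3.99% of set D peaks, with 4.72% over all chromosomes, and neither difference passed (Fisher's exact test, adjusted p = 0.569 and 1).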

How the data were processed

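CUT&RUN peak lists of 6 libraries from RPMI-8402 were used. The deposited files give region positions and no score, and hg19 is the build named in the submitters' processing notes. The tools named there are MACS2 and SEACR, without versions. Per the file headers, MYCN peaks come from cutruntools at a q-value limit, H3K4me3 from MACS2, the set C MYC list from SEACR in stringent mode, and the set D list from MACS2 on unpaired reads. The H3K27ac and H3K4me1 files have no header. The aligner is not given in the sources used here.

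A region belonged to a window by its centre, and 2 regions overlapped when they shared at least 1 bp. Two-sided Fisher's exact tests were adjusted by Benjamini-Hochberg over 28 shares. Clusters were joined within 10 kb (H3K27ac) or 1 kb (H3K4me3). The overlap counts of 30 ordered pairs of lists equalled those of bedtools 2.31.1, and the contrast was tested on simulated data. Scripts ran on scipy 1.17.1, numpy 2.4.6 and Python 3.11.15, with plots from matplotlib 3.10.9.

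The members, windows and tests were chosen with earlier results of these data known. Regions named in the text were the widest or longest of their kind on the chromosome and in each window, all MYCN peaks of the windows, MYCN peaks without MYC, and the bins with the most and fewest H3K4me3 regions. No hg19 genome or annotation was used, so regions carry no gene names and the planned count of zinc finger promoters was not run. Alternatives were the overlap rule, wider regions, each window left out, moved window edges, a smaller rest, covered bases and 1 MYC list at a time. Joined H3K4me3 regions, regions within 2 or 5 kb, and the rest without 1 Mb beside the longest empty stretch were added after the values were seen.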

Additional observations from a re-analysis of the deposited data

How the results depend on the processing

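Of the 28 shares, the number past the threshold was 16 as reported and 11 to 16 under 12 alternatives. For the 16 shares past it, 183 of 208 alternative values kept their direction and their call, 23 lost the call and 2 turned direction, and 6 shares passed under every alternative run. The 6 were H3K4me3, H3K27ac and MYC set D regions with H3K4me1, H3K4me3 regions with MYC set C, and H3K27ac and MYC set D regions with H3K4me3. The densities in the windows can already lower the shares with H3K4me1 or MYC set C and raise those with H3K4me3. Passing under every alternative therefore does not separate these shares from density. The differences below are in percentage points, windows minus rest, and the cause of each change was not tested. Depth is unknown, 27 H3K4me1 regions and 5 MYCN peaks in the windows limit what their shares can show, and each list stands on 1 library. No paired analysis was possible because each target had 1 library, apart from MYC, and no groups of samples were compared.

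H3K4me3 regions with H3K27ac differed by 12.5 among the wider regions and by 3.85 within 5 kb, no longer past. H3K4me3 regions with MYC set D differed by 9.19 at 100 bp shared and by 10.8 without window 1, both past, and by -0.24 at the centre, -0.55 among the wider regions and -0.34 within 5 kb. With MYC in at least 1 list, the difference of 0.44 ranged from -24.01 to 7.196 as either MYC list was left out, and both lists may rest on the same data.

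Among the wider regions, other differences that turned were H3K4me3 with MYCN (-1.44), H3K27ac with MYC set C (1.10), H3K4me1 with H3K4me3 (-7.38), H3K27ac (-4.88), MYC set C (-10.4) and MYC set D (-7.59), and MYC set D with MYCN (-1.04). Without window 1, H3K27ac with MYC set C turned to 1.16. Without window 2, H3K4me1 with MYC set C turned to -0.44 and the wide share of MYC set D to -1.88. Without window 3, MYCN turned at H3K4me3 (-3.27), MYC set C (-3.76) and MYC set D (-3.99), as did the wide shares of H3K27ac (0.15), MYC set C (2.40) and MYC set D (-0.0060). H3K4me1 with MYC set C turned with edges moved inward (-5.34), within 2 kb (-0.997) and within 5 kb (-9.43). H3K4me3 with MYCN turned at 100 bp shared (-0.51), with joined regions (-0.15) and within 5 kb (-0.029), and MYC set D with MYCN within 2 kb (-0.40) and 5 kb (-0.62). Apart from the wide H3K4me1 regions with H3K4me3 and MYC set D, none of these had passed as reported.

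Density ratios of windows to rest also moved with the windows left out. Without window 1 they were 1.21 for H3K4me3, 0.918 for H3K27ac, 0.178 for H3K4me1, 0.754 for MYC set C, 1.07 for MYC set D and 1.41 for MYCN. Without window 2 they were 0.338 for MYC set C and 0.594 for MYC set D, and without window 3 they were 0.712 for H3K4me3, 0.0656 for H3K4me1 and 0 for MYCN. With edges moved outward they were 0.173 for H3K4me1 and 1.08 for MYCN.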

Other observations

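The scarcity of H3K4me1 beside many H3K4me3 regions was looked for in 1 Mb bins of every chromosome, a search made after the window values were seen. Of 414 bins with at least 10 H3K4me3 regions, 44 of them on chromosome 19, 2 had no H3K4me1 region, and both were on chromosome 19. One was the bin from 52 to 53 Mb, with 19 H3K4me3 regions, 14 H3K27ac regions and 17 MYC set D peaks. The other was the bin from 37 to 38 Mb, outside the 3 windows, with 18, 16 and 16. It lies in a stretch from 36 to 39 Mb where further zinc finger genes are known. That stretch had 20.7 H3K4me3 and 11.7 H3K4me1 regions per Mb. The other 3 stretches known for such genes had more H3K4me1, with 16.5 per Mb from 8 to 10 Mb, 34.5 per Mb from 11 to 13 Mb and 20 per Mb from 44 to 46 Mb. Low H3K4me1 was therefore not found in all of them as whole stretches, which were set at whole Mb without an annotation. Their bins differed. Those from 9 to 10 Mb and from 44 to 45 Mb had 11 and 12 H3K4me1 regions. Those from 8 to 9 Mb and from 45 to 46 Mb had 22 and 28, and the bins between 11 and 13 Mb had 41 and 28. Of the 414 bins, 16 had at most 6 H3K4me1 regions, and 6 of these were on chromosome 19. The bin from 59 to 60 Mb is among the 6, with 11 H3K4me3 and 5 H3K4me1 regions. It is cut short, as the last region of any list ended at 59100556, so its low count does not show scarcity. The median over the 414 bins was 33.5.

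Another group of listed regions lay at the edge of the longest stretch with no region of any list, from 24623686 to 27731907. In the 500 kb after it there were 4 MYCN peaks, all between 27732002 and 27738659, with 7 MYC set D, 3 MYC set C, 3 H3K27ac and 2 H3K4me1 regions and no H3K4me3 region. All 4 MYCN peaks overlapped MYC of set D and H3K27ac, 2 overlapped H3K4me1 and none overlapped MYC of set C. They were 4 of the 8 MYCN peaks of the chromosome outside H3K4me3. Listed regions were used here without masking any part of the genome and without a list of IgG regions. Whether these 4 peaks reflect binding was not tested. In the 500 kb before the stretch there were 6 MYC set C and 5 MYC set D regions with 2 H3K4me3 regions.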
